A study of Mus musculus with 12 samples.

Results

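Fatty acid binding proteins and perilipins were examined in GFP(+) cells sorted from mouse liver. The 9 genes are 6 fatty acid binding proteins (*Fabp1*, *Fabp2*, *Fabp3*, *Fabp4*, *Fabp5* and *Fabp7*) and 3 perilipins (*Plin2*, *Plin3* and *Plin4*), out of 16969 distinct genes in the deposited table. They were chosen by name, with their group means at Day 0, bile duct ligation (BDL) day 3 and BDL day 14 already known, so those means and the ratios between them are a description and carry no test. Of the 9, 8 passed the filter on low values, and *Plin4* did not.

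The cells came from livers of C57BL/6 mice (by the methods, C57BL/6N for the *Prom1* line and C57BL/6J for the *Rosa26* line) of the genotype *Prom1CreERT2-nLacZ/+;Rosa26Lsl-GFP/+*, in which tamoxifen lets a Cre driven from the *Prom1* locus switch on GFP for good in Prom1-expressing cells and whatever descends from them. All groups carried both alleles and received tamoxifen 7 days before the sham or BDL arm began, as adults of 6 weeks, and both sexes were included. Day 0 is labelled sham and is described in the study as before BDL, while the other groups were collected 3 and 14 days after double ligation of the common bile duct, which stops the flow of bile. The labels hold 12 libraries (Day 0, 3; BDL day 3, 3; BDL day 14, 6), and the group means rest on 3, 3 and 4 of them, with 2 BDL day 14 libraries left out by the authors.

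Each value below is a normalized count, which is the authors' mean for 1 group after upper quartile normalization. The table gives no value per library, so no SD of a single group, test or depth per library could be had. Further values of the authors, the highest library's count per gene and the geometric mean over all libraries, limit by arithmetic how low and how high any single library of a group can lie. These limits are called the library range here, and groups whose library ranges do not overlap cannot share a value. The methods count as many mice as libraries, 1 male and 2 females at Day 0, 2 males and 1 female at BDL day 3 and 3 males and 1 female at BDL day 14, so the groups differ in sex as well as in time.

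The label of the cells as *Prom1* lineage was checked against marker genes, and markers of bile duct cells summed to less than those of macrophages. The 10 cholangiocyte markers summed to 520.6, 205.3 and 834.3 at Day 0, BDL day 3 and BDL day 14, of which *Spp1* (osteopontin, also made by macrophages) held 459, 175 and 792. *Krt19* (a keratin of bile duct cells) had means of 21.5, 12.7 and 14.3, and *Prom1* itself, looked up after the values were seen, had 6.66, 0.956 and 1.76. The summed level of 9 macrophage markers was far higher, at 13000, 23990 and 20960, of which *Lyz2* alone held 2280, 4560 and 11200. The summed level of 5 erythroid markers was 74530 at Day 0, then 7729 at BDL day 3, then 4483 at BDL day 14. In such bulk samples, fewer cells of a type and less RNA per cell cannot be told apart.

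Fatty acid binding proteins are small cytosolic proteins that hold a fatty acid in a barrel-shaped pocket and carry it between membranes, enzymes and nuclear receptors. Each member is known for its own tissues: *Fabp1* for the hepatocyte, *Fabp2* for the enterocyte, *Fabp3* for heart and muscle, *Fabp4* for adipocytes, capillary endothelium and macrophages, *Fabp5* for skin and macrophages, and *Fabp7* for the brain and, in mouse liver, the Kupffer cell. Perilipins coat the lipid droplet and govern the access of lipases to its core. *Plin2* and *Plin3* are found in most cells, *Plin2* being stable only on droplets and *Plin3* shuttling from the cytosol, while *Plin4* belongs mainly to adipocytes and muscle.

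Sequences upstream of the RefSeq start site (GRCm38.p6, 250 bases, written 5′ to 3′ on the strand of the gene) were held for 7 of the 9 members, and 4 are shown because they stand for the opposite patterns described below: *Fabp1* and *Fabp2* were both lower after BDL, and *Fabp7* and *Plin2* were both highest at BDL day 3. These patterns are those of the group means. For *Fabp2* at BDL day 3 the pattern rests on its highest Day 0 library. The library ranges of *Fabp7* and of *Plin2* overlapped between Day 0 and BDL day 3. Capitals mark the motifs found. GENCODE starts *Fabp1* and *Fabp7* further upstream, within the windows shown. *Fabp1* lies on the plus strand at chr6:71199629-71199878, *Fabp2* on the plus strand at chr3:122894822-122895071, *Fabp7* on the plus strand at chr10:57784673-57784922 and *Plin2* on the minus strand at chr4:86670060-86670309.
Fabp1: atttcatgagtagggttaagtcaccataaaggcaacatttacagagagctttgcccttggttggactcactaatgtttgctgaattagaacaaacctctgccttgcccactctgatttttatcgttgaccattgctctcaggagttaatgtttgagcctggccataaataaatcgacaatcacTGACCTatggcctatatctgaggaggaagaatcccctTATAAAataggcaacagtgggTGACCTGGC
Fabp2: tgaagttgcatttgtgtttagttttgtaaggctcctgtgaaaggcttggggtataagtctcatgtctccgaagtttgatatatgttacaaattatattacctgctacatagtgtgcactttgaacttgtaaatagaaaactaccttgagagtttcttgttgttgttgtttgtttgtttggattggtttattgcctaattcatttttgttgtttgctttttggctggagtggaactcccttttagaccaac
Fabp7: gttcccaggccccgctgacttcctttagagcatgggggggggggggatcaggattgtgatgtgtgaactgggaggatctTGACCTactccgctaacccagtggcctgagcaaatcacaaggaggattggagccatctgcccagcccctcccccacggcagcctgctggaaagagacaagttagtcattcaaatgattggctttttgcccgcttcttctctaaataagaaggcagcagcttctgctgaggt
Plin2: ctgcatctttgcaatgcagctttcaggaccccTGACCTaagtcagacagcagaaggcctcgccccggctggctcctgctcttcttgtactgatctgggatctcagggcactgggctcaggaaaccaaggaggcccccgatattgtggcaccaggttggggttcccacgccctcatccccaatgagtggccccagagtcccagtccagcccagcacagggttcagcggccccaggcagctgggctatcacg

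The motifs searched on both strands were as follows: the core promoter box TATAAA, the half-site of nuclear receptors such as the PPARs AGGTCA, the pair of such half-sites in the DR1 spacing AGGTCANAGGTCA, the HNF4 type site CAAAGTCCA, the Maf half-site TGACNNNGC, the E-box CACGTG, and the AP-1 site TGANTCA. *Fabp1* held TATAAA from 30 to 25 bases before its start, a motif found in 12.4% of 32851 upstream regions of this length. The capitals TGACCT are the half-site read on the opposite strand, and were found in *Fabp1*, *Fabp7* and *Plin2*, against 14% of all regions. The copy of *Fabp1* nearest the start overlaps a Maf half-site, which 10.2% of all regions hold. *Fabp2*, *Fabp3*, *Plin3* and *Plin4* held none of these motifs in this window. The exact DR1, HNF4 type, E-box and AP-1 letters were in none of the 7 (0.0335%, 0.384%, 6.02% and 6.75% of all regions). Only exact letters were searched, so a site that differs from them in any base, such as an imperfect DR1, would be missed. The half-site thus occurred both in a member that was lower after BDL and in 2 members whose group mean was highest at BDL day 3.

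The member with the highest signal per kilobase differed in each of the 3 groups. At Day 0 it was *Fabp1*, with 340 normalized counts per kilobase of exon, ahead of *Fabp7* with 120 and *Plin2* with 49.5. At BDL day 3 it was *Fabp7* with 260, ahead of *Plin2* with 78.6 and *Fabp5* with 18.5. At BDL day 14 it was *Fabp5* with 138, ahead of *Plin2* with 58.9 and *Fabp7* with 37.3. *Fabp1* by then stood at 0.250 per kilobase. Of the summed fatty acid binding protein signal per kilobase, *Fabp1* made up 69.0% at Day 0, then 3.67% at BDL day 3, then 0.125% at BDL day 14. The share of *Fabp7* was 24.3%, 87.9% and 18.7%, and that of *Fabp5* was 1.71%, 6.23% and 69.4%.

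**Figure D1:**
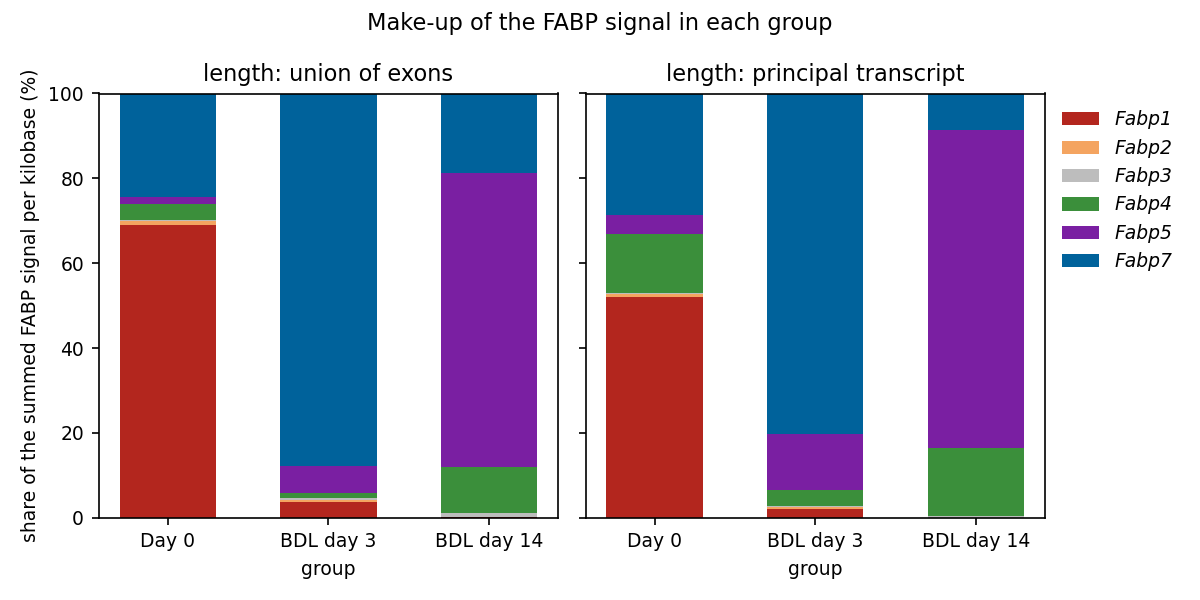
Stacked bars of the share (%) of the summed fatty acid binding protein signal per kilobase held by each of the 6 genes in Day 0, BDL day 3 and BDL day 14, from the authors' group means. The left panel uses the union of exons as length and the right panel the principal transcript. The largest share passes from *Fabp1* (69.0%) to *Fabp7* (87.9%) and then to *Fabp5* (69.4%) in the left panel.

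The lengths of *Fabp4* and *Fabp5* in this scale include a retained intron transcript. With the length of the principal transcript, an alternative added after the data were seen, the leading shares were 52.0% for *Fabp1* at Day 0, 80.2% for *Fabp7* at BDL day 3 and 74.9% for *Fabp5* at BDL day 14. *Fabp7* then held 28.5% at Day 0 and 8.68% at BDL day 14, and *Fabp5* held 4.67% at Day 0 and 13.2% at BDL day 3. *Fabp5* stood at 500.5 normalized counts per kilobase at BDL day 14 on that scale. On that scale *Fabp4* stood at 90.1, 19.4 and 107 normalized counts per kilobase in the 3 groups, beside *Plin2* at 92.2, 146 and 110. By library range, *Fabp7* stood apart from the next member at BDL day 3 on both length scales. *Fabp5* stood apart from *Plin2* at BDL day 14 on the principal transcript scale, and the ranges overlapped on the scale of exon unions. At Day 0 no 2 neighbours in the order were apart on either scale. The other neighbours apart were *Plin2* and *Fabp5* at BDL day 3 on the exon union scale, and *Plin3* and *Fabp2* at BDL day 3 on the principal transcript scale.

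**Figure D2:**
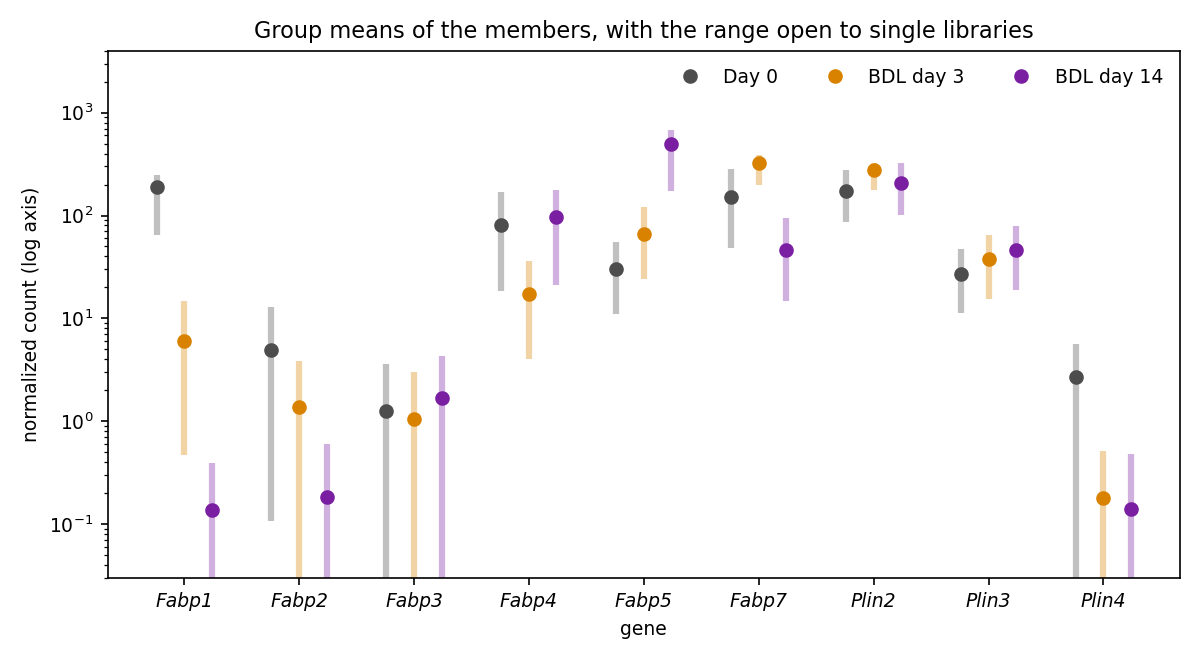
Group means of the 9 members in normalized counts (log axis), with Day 0 in grey, BDL day 3 in orange and BDL day 14 in purple. Points are the authors' means, and the pale bars are the library ranges, cut off at the lower edge of the plot, so they are limits and not error bars. *Fabp1* and *Fabp5* move in opposite directions, and the 3 means of *Plin2* lie between 174 and 276.

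*Fabp1* lies on chromosome 6 (chr6:71199827-71205023, GRCm38, plus strand). Its mean was 188 at Day 0, then 6.00 at BDL day 3, then 0.138 at BDL day 14, and the last value is at the floor of the table, read as up to 4 times the lowest mean of a group (0.244 at BDL day 14). The highest library had 247 and can only belong to Day 0, of which it held 43.8%, and without it the Day 0 mean would be 158.5. The library ranges were 64.7 to 248 at Day 0 and 0.467 to 14.9 at BDL day 3, so every Day 0 library lay above every BDL day 3 library. At BDL day 3 the mean was 31.3-fold lower than at Day 0 (log2 ratio −4.97), and at BDL day 14 it was at least 770-fold lower.

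Markers of hepatocytes were also lower, and by less than *Fabp1*. Of 12 hepatocyte markers, 9 were past 1.5-fold lower after 3 days of BDL and 12 after 14 days, with a median log2 ratio of −2.73 at BDL day 14, and their summed level was 3760, 1122 and 484.8 in the 3 groups. None was at the floor. *Alb*, the plasma protein albumin, had means of 2440, 642 and 271, *Serpina1a* (an antitrypsin) had 353, 102 and 28.9, and *Ahsg* (fetuin A) had 223, 73.0 and 52.2. The *Fabp1* mean amounted to 7.70% of the *Alb* mean at Day 0, to 0.935% at BDL day 3 and to at most 0.0900% at BDL day 14, taking the floor for *Fabp1*. The part of hepatocyte RNA in the *Fabp1* values was not tested.

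The 3 genes nearest to *Fabp1* in both log2 ratios against Day 0, among 7291 genes with a mean of at least 10, were *Sult2a8*, *Mup22* and *Mup3*. *Sult2a8*, a bile acid sulfotransferase of the liver, had means of 36.2, 1.32 and 0.0610. *Mup22* (56.2, 8.30 and 0.0610) and *Mup3* (70.2, 10.9 and 0.0610) encode major urinary proteins, which hepatocytes secrete. All 4 genes were at the floor at BDL day 14, so that part of the likeness is not measured. With means at the floor raised to it, the same 3 genes were nearest, at Euclidean distances between the pairs of log2 ratios of 2.38, 2.81 and 2.69 for *Sult2a8*, *Mup22* and *Mup3*. At BDL day 14 against Day 0 these genes were at least 148-fold, 230-fold and 288-fold lower. Major urinary proteins are known to differ between the sexes, so genes of the sex chromosomes were looked up after these values were seen. *Xist*, which is expressed in females, had means of 143, 40.2 and 28.3, and the Y-linked *Ddx3y* had 7.73, 17.1 and 19.1. The part of sex in the *Fabp1* values was not tested.

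*Fabp2* (chr3:122895072-122899506, plus strand) was low throughout, with means of 4.98, 1.39 and 0.185. Its highest library, at 12.9, can only be a Day 0 library and held 86.4% of that group, and without it the Day 0 mean would be 1.02. The log2 ratio at BDL day 3 against Day 0 was −1.84, and it turned to 0.45 without that library. At BDL day 14, where the mean was at the floor, the drop from Day 0 was at least 20.4-fold. Enterocyte markers were low as well, since *Lct* had no mean above 0.431 and the 4 markers of 6 that were in the table (*Sis* and *Alpi* were not) summed to 9.34, 7.05 and 2.46. The nearest genes in pattern were *Hspa1b* (274, 67.4 and 10.3) and *Hspa1a* (324, 94.2 and 15.5), which encode inducible heat shock proteins, and *Serpina1c*, an antitrypsin of hepatocytes. This likeness rests on a BDL day 14 mean at the floor and on that 1 library at Day 0. With the mean raised to the floor *Hspa1a* came first, and *Hspa1b* and *Serpina1c* moved to places 7 and 10 in the order.

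*Fabp7* (chr10:57784881-57788450, plus strand) was highest at BDL day 3. Its mean was 150 at Day 0, then 325 at BDL day 3, then 46.6 at BDL day 14, and its highest library was 385. The library ranges were 48.8 to 284 at Day 0, 196 to 387 at BDL day 3 and 14.6 to 94.0 at BDL day 14. All BDL day 3 libraries therefore lay above all BDL day 14 libraries, while Day 0 overlapped both. Its log2 ratio was 1.12 after 3 days and −1.69 after 14 days of BDL against Day 0, and −2.80 between the BDL groups, a 6.97-fold lower mean at BDL day 14.

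Kupffer cell markers moved the same way. Of 8 such markers, 6 were past 1.5-fold higher at BDL day 3 against Day 0 and 8 were lower at BDL day 14, and their summed level was 10320, 22600 and 1554, with none at the floor. *Clec4f*, a lectin restricted to Kupffer cells, had means of 4610, 6890 and 185, *Cd5l* (a secreted macrophage protein) had 2620, 7440 and 691, and the scavenger receptor *Marco* had 694, 3920 and 183. *Fabp7* amounted to 1.45%, 1.44% and 3.00% of the summed level of these markers. The genes nearest to *Fabp7* in pattern were *Hbegf*, a growth factor of the EGF family (18.3, 39.9 and 5.22), *Chp2*, a calcineurin-like calcium binding protein (38.6, 73.7 and 11.7), and *Crip2*, a LIM domain protein (86.2, 188 and 23.5), at distances of 0.124 to 0.189. The part of Kupffer cell number in the *Fabp7* values was not tested.

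*Fabp5* (chr3:10012548-10016607, plus strand) was the member with the largest increase of the mean. It had 30.1 at Day 0, then 65.8 at BDL day 3, then 494 at BDL day 14, with a highest library of 670 that can only belong to BDL day 14. The library ranges were 11.0 to 54.8, 24.1 to 120 and 174 to 673, so BDL day 14 was clear of both other groups, and Day 0 and BDL day 3 overlapped. The mean was 2.19-fold higher at BDL day 3 (log2 ratio 1.13) and 16.4-fold higher at BDL day 14 (log2 ratio 4.04) than at Day 0, and 7.51-fold higher at BDL day 14 than at BDL day 3. Among the genes kept its rank by mean went from 3111 to 1571 to 191. Without the highest library the BDL day 14 mean would be 435.

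Most markers of recruited macrophages were higher beside *Fabp5* at BDL day 14, and fewer at BDL day 3. Of 8 such markers, 4 were past 1.5-fold higher after 3 days of BDL and 7 after 14 days, with *Ly6c2* lower in both, and their summed level was 157.9, 304.8 and 2214. *Chil3*, a chitinase-like protein of monocytes, had means of 14.7, 90.4 and 858, *F13a1* (a coagulation factor chain made by monocytes) had 10.0, 23.5 and 334, and the integrin *Itgam* had 44.4, 99.5 and 220. The means of *Ccr2* (15.3, 12.2 and 161) and *Cx3cr1* (11.7, 9.06 and 285) were not higher at BDL day 3 than at Day 0. *Fabp5* amounted to 19.1%, 21.6% and 22.3% of that sum, and to 0.232%, 0.274% and 2.36% of the sum of the 9 general macrophage markers. Markers of lipid-associated macrophages summed to 2656, 7715 and 9753, with 7 of 8 past 1.5-fold higher at BDL day 14 against Day 0. Among them the lysosomal protease gene *Ctsd* had 1170, 4180 and 4650, and *Lgals3* (galectin 3) had 356, 1550 and 1430. The exception at BDL day 14 was *Lpl* (lipoprotein lipase), with 540, 1250 and 680. At BDL day 3 against Day 0, 6 of these 8 markers were higher and 1, *Spp1*, was lower (459, 175 and 792 in the 3 groups). The part of recruited or lipid-associated macrophages in the *Fabp5* values was not tested.

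The genes nearest to *Fabp5* in pattern were *Cyp4f18*, *Clec5a* and *Ccr1*. *Cyp4f18*, a leukotriene hydroxylase of myeloid cells, had means of 12.4, 29.5 and 169, *Clec5a* (a myeloid lectin receptor) had 1.78, 4.95 and 33.8, and the chemokine receptor *Ccr1* had 11.3, 18.6 and 196. Their distances were 0.294, 0.406 and 0.417.

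*Fabp4* (chr3:10204088-10208576, minus strand) was low only at BDL day 3. It had 80.7 at Day 0, then 17.4 at BDL day 3, then 95.8 at BDL day 14, where its highest library, at 177, must lie. Its log2 ratio was −2.21 after 3 days and 0.25 after 14 days of BDL against Day 0, and 2.46 at BDL day 14 against BDL day 3. The library ranges, 18.7 to 168, 4.01 to 36.2 and 21.3 to 178, overlapped in every comparison. Without the highest library the log2 ratio at BDL day 14 against Day 0 was −0.23. *Fabp4* had a within-group SD of 0.69 on the log2 scale, estimated from the geometric mean, against a median of 0.58 over the genes kept.

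Endothelial markers shared the dip, as did markers of bile duct cells. Of 9 capillary and sinusoidal markers, 8 were past 1.5-fold lower at BDL day 3 and 2 were lower at BDL day 14 against Day 0, and 7 were higher at BDL day 14 against BDL day 3. Their summed level was 795.8, 545.0 and 806.7, and the exception at BDL day 3 was *Cdh5* (VE-cadherin), with means of 207, 299 and 81.5. *Stab2*, a scavenger receptor of sinusoids, had 178, 93.7 and 113, and *Gpihbp1*, which carries lipoprotein lipase across capillaries, had 68.5, 36.2 and 204. *Fabp4* amounted to 10.1%, 3.19% and 11.9% of that sum. The nearest genes were *Slc43a3* (a nucleobase transporter, 50.8, 11.1 and 61.7), the endothelial gene *Myct1* (14.9, 2.98 and 17.0) and the interleukin receptor gene *Il1r1* (16.4, 3.67 and 21.3). Of the adipocyte markers, *Adipoq*, *Cidec* and *Retn* had no mean above 0.913, and *Plin1* and *Lep* were not in the table. *Cfd*, the only one kept, had 0.128, 9.29 and 3.34. From the floor at Day 0 it was at least 18.1-fold higher at BDL day 3 and 6.52-fold higher at BDL day 14. Of 7 cholangiocyte markers kept, 6 were past 1.5-fold lower at BDL day 3 against Day 0 and none was higher. At BDL day 14, 4 of them were higher and none lower against BDL day 3, and 2 were higher and 4 lower against Day 0. The part of endothelial or bile duct cell RNA in the *Fabp4* values was not tested.

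**Figure D3:**
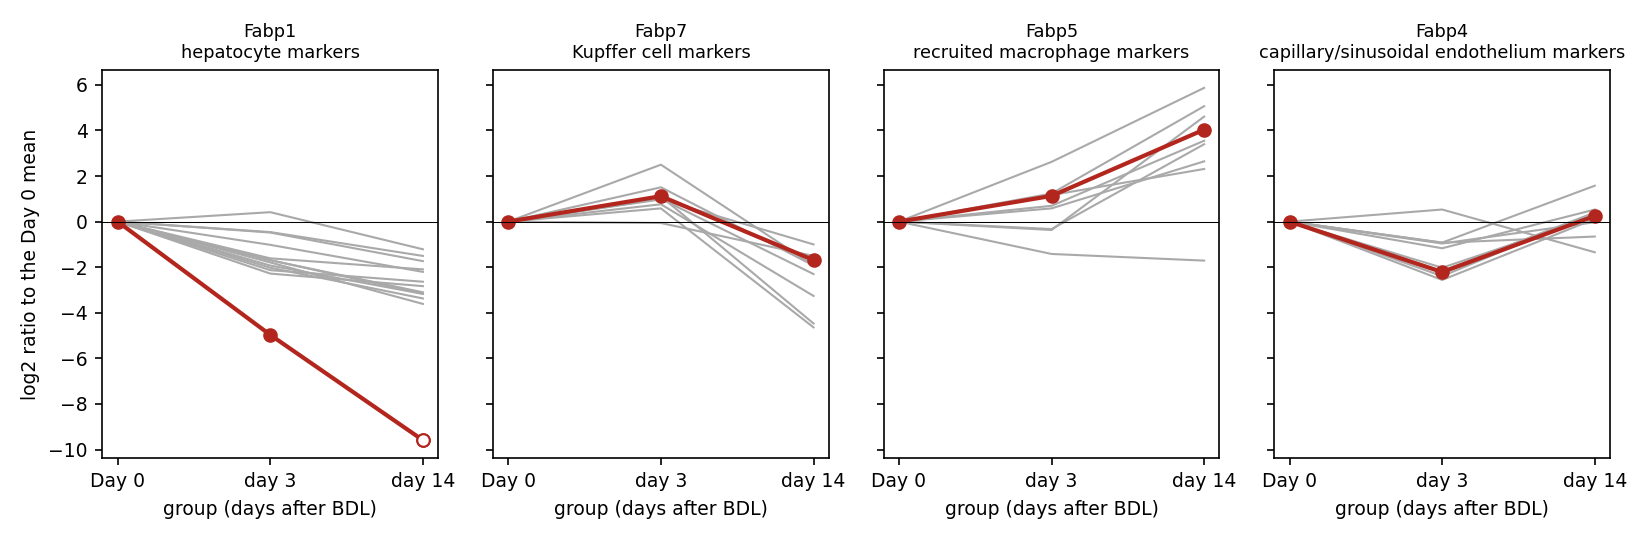
Log2 ratio of each group mean to the Day 0 mean, with the member in red and the markers of 1 cell type in grey, for *Fabp1* with hepatocyte, *Fabp7* with Kupffer cell, *Fabp5* with recruited macrophage and *Fabp4* with endothelial markers. Means at the floor were raised to the floor, and the open point of *Fabp1* at BDL day 14 is therefore the upper limit of its ratio. The pairs of member and markers were chosen after the values were seen. *Fabp1* lies below all 12 hepatocyte markers, and the other members lie within the span of their markers.

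*Fabp3* (chr4:130308595-130315463, plus strand) was barely detected, with means of 1.25, 1.05 and 1.69 and a highest library of 4.30 that held 63.6% of BDL day 14. The log2 ratio of 0.69 at BDL day 14 against BDL day 3 was −0.36 without that library, and that of 0.44 at BDL day 14 against Day 0 was −0.61. With quantile normalization the log2 ratio against Day 0 was 0.84 at BDL day 3, in place of −0.25, and 1.28 at BDL day 14. Among markers of striated muscle, *Ckm* and *Actc1* had no mean above 0.553. The nearest genes to *Fabp3* in pattern were *Npm1* (165, 137 and 224), *Fyttd1* (17.9, 15.1 and 24.6) and *Anapc4* (19.8, 16.3 and 26.8), all of them genes of general nuclear functions, and at a mean of about 1 count this likeness is weak.

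*Plin2* (chr4:86648386-86670060, minus strand) was the perilipin with the highest signal in all 3 groups, with 86.7%, 88.8% and 82.7% of the summed perilipin signal per kilobase. Its mean was 174 at Day 0, then 276 at BDL day 3, then 207 at BDL day 14. It was 1.59-fold higher at BDL day 3 than at Day 0 (log2 ratio 0.67), and 1.19-fold higher at BDL day 14. With quantile normalization the log2 ratio at BDL day 3 was 0.26, within 1.5-fold. The library ranges, 86.9 to 280, 179 to 323 and 101 to 323, overlapped throughout, and its within-group SD of 0.34 on the log2 scale was the smallest of the members. The nearest genes in pattern were *Mrpl28* (27.9, 44.2 and 33.1), *Btbd9* (11.3, 18.1 and 13.5) and *Zscan21* (10.3, 16.6 and 12.3).

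*Plin3* (chr17:56277476-56292873, minus strand) had means of 26.9, 37.4 and 46.7. It was 1.74-fold higher at BDL day 14 than at Day 0 (log2 ratio 0.80), and 1.39-fold higher at BDL day 3. Its highest library, at 78.4, must lie in BDL day 14, whose mean without it would be 36.1, and the count of members past 1.5-fold higher at BDL day 14 then drops by 1. The library ranges of 11.2 to 46.8, 15.5 to 65.0 and 18.8 to 78.8 overlapped. The nearest genes were the elongation factor *Eef2* (813, 1130 and 1400), *Cacfd1* (9.00, 12.4 and 15.6) and *Zfp810* (8.98, 12.5 and 15.4).

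*Plin4* (chr17:56100591-56109803, minus strand) summed to 9.22 over the libraries, under the minimum of 10, and stands outside all counts of members. Its mean was 2.71 at Day 0 and at the floor at BDL day 3 (0.181) and BDL day 14 (0.140), at least 9.29-fold and 11.1-fold lower. The highest library, at 5.55, held 68.3% of Day 0. Among the other genes of both families, *Plin5* (the perilipin of oxidative tissues) had 1.18, 0.839 and 0.324. *Fabp6*, the ileal bile acid binding protein, and *Crabp2*, a retinoic acid binding protein, had no mean above 0.512, and 6 further genes of the binding protein family and *Plin1* were not in the table.

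The counts of members past 1.5-fold are given beside the shares of all genes, which were themselves large. At BDL day 3 against Day 0, 3 of the 8 members kept were higher (*Fabp5*, *Fabp7* and *Plin2*) and 3 lower (*Fabp1*, *Fabp2* and *Fabp4*), against 19.2% higher and 29.2% lower over the 12889 genes kept. At BDL day 14 against Day 0, 2 were higher (*Fabp5* and *Plin3*) and 3 lower (*Fabp1*, *Fabp2* and *Fabp7*), against 21.2% and 28.8%. At BDL day 14 against BDL day 3, 3 were higher (*Fabp3*, *Fabp4* and *Fabp5*) and 3 lower (*Fabp1*, *Fabp2* and *Fabp7*), against 21.2% and 19.7%. The median log2 ratio of the members was 0.11, 0.25 and −0.05 in these comparisons, beside −0.02, −0.04 and −0.003 over all genes kept. Both comparisons against Day 0 share the Day 0 libraries. *Fabp2* passed the filter on low values only through its highest library, at Day 0 (12.9 of a summed count of 19.8). *Fabp3* passed it only through its highest library, at BDL day 14 (4.30 of 13.6). The calls of *Fabp2* as lower against Day 0 and of *Fabp3* as higher at BDL day 14 are therefore not independent of the filter. Of all genes past 1.5-fold, 60.3%, 57.6% and 48.2% were lower in the 3 comparisons, and with quantile normalization of the means 45.0%, 45.7% and 50.4% were, and with equal summed signal 51.1%, 37.2% and 33.2%.

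Groups were apart for fewer members. From the sums and the highest library alone, *Fabp1* was apart at BDL day 3 against Day 0 (2.02% of the genes kept were) and at BDL day 14 against Day 0 (1.65%), and *Fabp7* at BDL day 14 against BDL day 3 (0.582%). With the geometric mean as well, which was added after the data were seen, *Fabp1* was apart in all 3 comparisons, *Fabp5* at BDL day 14 against both other groups and *Fabp7* at BDL day 14 against BDL day 3. The shares of all genes kept were then 4.48% at BDL day 3 against Day 0, 4.34% at BDL day 14 against Day 0 and 2.23% at BDL day 14 against BDL day 3. With a margin of 5% on the sums and the highest library, and no geometric mean, the separation of *Fabp1* at BDL day 14 against Day 0 remained and those of *Fabp1* at BDL day 3 and of *Fabp7* were lost. Over the 12889 genes kept, that margin left 88 in place of 260 apart at BDL day 3 against Day 0. It left 72 in place of 213 at BDL day 14 against Day 0, and 28 in place of 75 at BDL day 14 against BDL day 3.

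**Figure D4:**
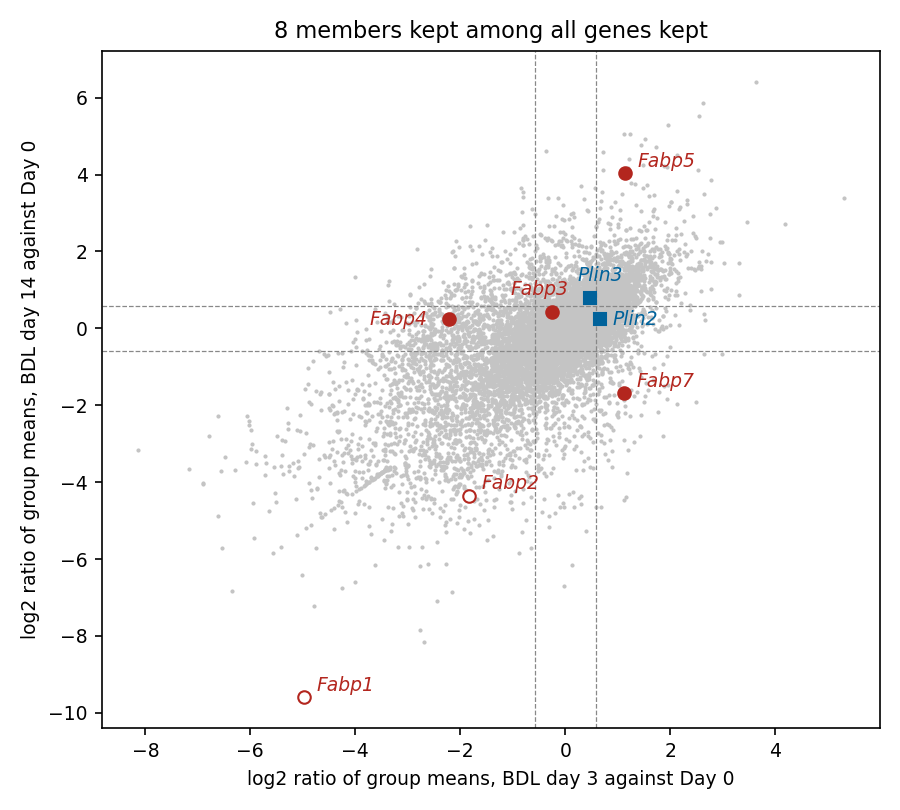
Log2 ratio of group means at BDL day 3 against Day 0 (horizontal) and at BDL day 14 against Day 0 (vertical) for the 12889 genes kept (grey), with 6 fatty acid binding proteins as red circles and 2 perilipins as blue squares. Means at the floor were raised to it, open circles mark members at the floor at BDL day 14, and dashed lines mark 1.5-fold. The axes share the Day 0 means. *Fabp1* lies at the lower edge, *Fabp5* near the upper edge, and *Plin2* and *Plin3* near the centre.

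*Fabp4* and *Fabp5* are neighbours on chromosome 3, and *Plin3* and *Plin4* on chromosome 17. Around the first pair, 8 genes of the table lie within 200 kb, and *Fabp5* and *Zfand1* (6.26, 4.71 and 10.6) were the kept ones past 1.5-fold higher at BDL day 14 against Day 0. The genes *Pag1* (15.1, 15.1 and 14.7) and *Impa1* (17.6, 11.2 and 17.4) on either side changed little between Day 0 and BDL day 14, and *Chmp4c* had 3.63, 0.561 and 0.927. *Gm9833*, between *Fabp5* and *Fabp4*, had no mean above 0.484, and the lincRNA *Gm38335* next to *Fabp5*, under the minimum for low values, had 0.128, 0.0729 and 1.73. Around *Plin3* and *Plin4*, 23 genes are listed, among them *Ticam1* (8.95, 10.8 and 10.2) next to *Plin3* and *Hdgfl2* (21.1, 17.0 and 12.3), whose end overlaps that of *Plin4*.

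The lists of other genes of fatty acid handling held both higher and lower genes. Over all genes kept, 21.2% were higher and 28.8% lower at BDL day 14 against Day 0, and 19.2% and 29.2% at BDL day 3, and the counts of each list stand beside these shares. Of 15 genes of fatty acid uptake and activation kept, 4 were past 1.5-fold higher and 4 lower at BDL day 14 against Day 0 (median log2 ratio −0.08). The higher ones were the fatty acid translocase *Cd36* (70.8, 208 and 319), *Gpihbp1*, and the acyl-CoA synthetases *Acsl4* (22.2, 33.3 and 41.8) and *Acsl1* (20.7, 20.5 and 31.7). The lower ones were the fatty acid transport proteins *Slc27a2* (5.94, 2.90 and 0.385), *Slc27a3* (5.58, 1.22 and 0.890) and *Slc27a5* (5.22, 3.20 and 0.999) and the sterol carrier *Scp2* (224, 235 and 122). At BDL day 3 against Day 0 the list had 2 higher and 4 lower.

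Of 17 genes of lipid droplet biogenesis and coat, 5 were higher and 4 lower at BDL day 14 against Day 0, and 5 higher and 3 lower at BDL day 3. The 4 with the largest increase at BDL day 14 were *Fitm2*, which buds droplets (0.977, 2.62 and 3.86), the acyltransferases *Gpat3* (1.04, 1.62 and 2.75) and *Agpat2* (11.0, 15.6 and 24.5), and the droplet dehydrogenase *Hsd17b11* (68.4, 124 and 127). The lower ones were *Cideb*, a droplet protein of hepatocytes (6.15, 2.02 and 0.985), the lipase inhibitors *Hilpda* (42.0, 67.6 and 9.71) and *G0s2* (17.5, 4.75 and 9.53), and *Dgat2*, which makes triglyceride (6.17, 2.80 and 3.76). *Hilpda* was thus highest at BDL day 3 and lowest at BDL day 14, as *Fabp7* was.

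Of 8 lipolysis genes, *Lipa* alone was past 1.5-fold higher at BDL day 14 against Day 0 and at BDL day 3. *Lipa*, the acid lipase of the lysosome, had means of 166, 554 and 480. Past 1.5-fold lower were 3 genes at BDL day 3 and 2 at BDL day 14. The carboxylesterases *Ces1d* (34.0, 9.25 and 2.71) and *Ces3a* (17.2, 3.58 and 0.123), both of hepatocytes, were lower at both times, *Ces3a* by at least 70.5-fold at BDL day 14. *Mgll* was lower at BDL day 3 only, with means of 26.3, 6.14 and 28.8.

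Among 15 transcription factors known to act on these genes, 3 were higher and 4 lower at BDL day 14 against Day 0. *Pparg*, which drives *Fabp4* in fat cells and macrophages, had means of 6.90, 11.9 and 18.3, *Hif1a* had 24.9, 20.1 and 39.1, and *Mitf* had 10.3, 12.2 and 15.6. *Nr1h3* (the liver X receptor alpha) had 274, 457 and 34.9, *Hnf4a* (a hepatocyte factor) had 27.8, 6.47 and 3.74, *Cebpb* had 115, 104 and 43.4, and *Epas1* had 58.1, 6.37 and 35.0. *Ppara*, the receptor that drives *Fabp1* in the hepatocyte, was not kept, with 1.35 at Day 0 and means at the floor after BDL.

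Most other target genes of the PPARs were lower. Of 9 kept, 7 were past 1.5-fold lower after 3 days and 8 after 14 days of BDL against Day 0, against 29.2% and 28.8% of all genes. *Cpt1a*, the carnitine transferase that admits fatty acids to mitochondria, was not among the lower genes at either time, with means of 51.3, 77.2 and 45.4, and was past 1.5-fold higher at BDL day 3 (log2 ratio 0.59). The median log2 ratio of the list was −1.66 and −3.63. The peroxisomal thiolase *Acaa1b* had means of 19.8, 6.33 and 0.576. The omega hydroxylases *Cyp4a10* (5.33, 0.900 and 0.0610) and *Cyp4a14* (3.47, 0.791 and 0.123) were at least 21.8-fold and 14.2-fold lower at BDL day 14. The list holds mainly genes of hepatocytes, whose markers were lower in the same comparisons, and the part of hepatocyte RNA in these values was not tested.

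**Figure D5:**
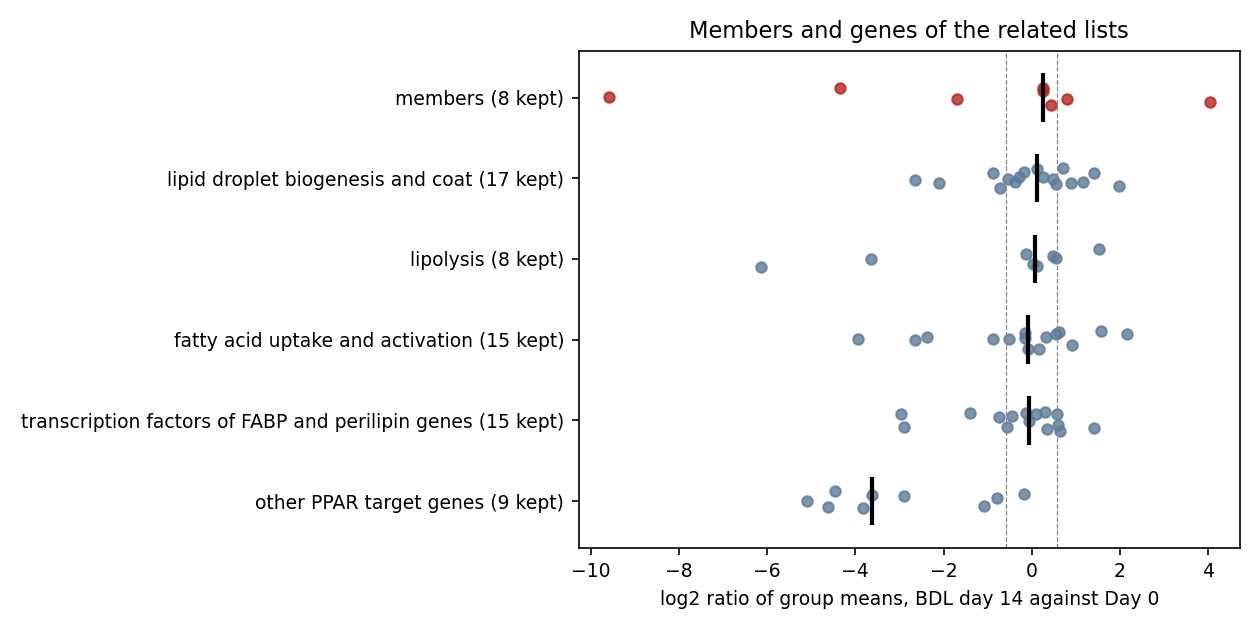
Log2 ratio of group means at BDL day 14 against Day 0 for the 8 members kept (red) and for the genes kept of 5 related lists (blue), with the median of each list as a black bar and 1.5-fold as dashed lines. Means at the floor were raised to it. The medians of the members and of 4 lists lie near 0, and the other PPAR target genes have a median of −3.63.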

How the data were processed

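The labels describe 12 libraries of mRNA from FACS-sorted GFP(+) cells of the nonparenchymal liver fraction. The authors trimmed reads at a quality of 20 and a length of 25, aligned them with STAR (2.6.1d in the submitters' processing notes) to mm10 with GENCODE genes in Partek Flow and normalized by the upper quartile method. The study's methods give another version of STAR. They also name an earlier GENCODE release than the M21 that gave the exon lengths here. How reads shared by similar genes or strands were counted was not given in the sources used here. The deposited signal values are the authors' normalized counts averaged per group by least squares, and their mean over all libraries. The authors' value for the highest library of a gene was treated as a score, and their geometric mean narrowed the limits. The deposited table has 0 columns of values per library, so depth is unknown. It also holds the authors' p-values, FDR, ratios, fold changes and limits for 3 comparisons, and none was used.

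Members and lists were chosen with earlier results of these data known. Group sizes of 3, 3 and 4 were checked: weighted by them, the group means gave back the mean over all libraries within 0.678% for every gene. Of 16971 genes listed (16969 distinct symbols, the first of each used), 12889 had a summed normalized count of at least 10 and were kept. Log2 ratios were taken between the authors' group means, with no pseudocount, and a ratio past 1.5-fold was counted. No test was possible. A mean of at most 0.512, 0.292 or 0.244 in the 3 groups, which is 4 times the smallest mean there, was read as the floor. That smallest mean was shared by 984, 1284 and 550 genes in the 3 groups, and the number of reads it stands for is not known. Folds against means at the floor are given as at least. Library ranges assume 3, 3 and 4 libraries and the rounding of the deposited values. The within-group SD on the log2 scale was estimated from how far the geometric mean lies under the weighted group means. The limits were tested on simulated data. This SD was tested there only for genes with high means and at a single simulated spread, so it is untested for genes with low means. Exon lengths came from GENCODE M21 and upstream sequences from RefSeq (GRCm38.p6). Python 3.11.15, numpy 2.4.6, pandas 2.3.3 and matplotlib 3.10.9 were used.

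The genes named are the 9 members, their families, up to 4 higher and 4 lower genes of each related list with the largest ratio at BDL day 14 against Day 0, the 3 markers of each list with the highest mean, markers near the floor, the 3 genes nearest in log2 ratios to each member, and listed genes within 200 kb of the paired loci. *Prom1*, *Xist*, *Ddx3y*, *Cpt1a*, *Mgll*, *Ccr2*, *Cx3cr1* and the endothelial exception *Cdh5* were looked up or singled out after values were seen. Some genes that this rule names are not reported here. Of the marker lists not described above, summed levels at Day 0, BDL day 3 and BDL day 14 were 82.2, 24.6 and 6.66 for T and NK cells, 186.5, 49.7 and 22.1 for B cells, 533.5, 261.1 and 163.2 for neutrophils, 24.1, 34.6 and 74.3 for dendritic cells, 833.9, 17.1 and 78.8 for stellate cells and fibroblasts, 489.8, 8.84 and 39.5 for muscle, and 129.5, 129.0 and 150.4 for proliferation.

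The filter was dropped or set to a mean of at least 10. Other alternatives were a pseudocount of 1 or 0.1, median-ratio scaling, equal summed signal, quantile normalization, a 2-fold threshold, the highest library left out where it could be placed, a margin of 5% on the limits, and the longest transcript as length. Raising means to the floor, also for the nearest genes, placing the highest library with the geometric mean, the narrower limits, the within-group SD and the principal transcript were added after the data were seen.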

Additional observations from a re-analysis of the deposited data

How the results depend on the processing

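The log2 ratios of the 8 members kept, recomputed under 11 settings, gave 258 values. Of these, 238 stayed within 1.5-fold of the value reported. Many could not do otherwise: the changes of filter and the 2-fold threshold leave every ratio as it was. Median-ratio scaling and equal summed signal shift all genes of a comparison by the same amount. The 238 are therefore no measure of robustness. A change of sign was seen in 9 of the 258 values, 4 of them from a ratio past 1.5-fold and 5 from one within it. The former were those of *Fabp2* at BDL day 3 against Day 0, at 0.45 without its highest library, and of *Fabp3* at BDL day 14 against BDL day 3, at −0.36 without its highest library, and both came out alike with and without the geometric mean in placing that library. The latter were *Fabp3* at BDL day 14 against Day 0 without that library (−0.61, in both placings), *Fabp3* at BDL day 3 against Day 0 with quantile normalization (0.84), and, with the highest library placed by the geometric mean, *Fabp4* at BDL day 14 against Day 0 (−0.23) and *Plin3* at BDL day 14 against BDL day 3 (−0.05). With quantile normalization the members higher at BDL day 3 against Day 0 still numbered 3, with *Fabp3* in place of *Plin2* (0.26). The number of members higher at BDL day 14 against Day 0 was 2 past 1.5-fold and 1 past 2-fold. Over all genes kept that number went from 2729 to 1259. With the highest library placed by the geometric mean, 1 member was past 1.5-fold higher, beside 2421 of all genes kept. *Plin3* was the member that dropped out in both settings. The other 64 of 66 counts of members stayed within 1.5 times, a tolerance that takes 3 and 2 as alike and so passes the loss of a member. The loss of *Fabp2* from the lower members at BDL day 3 against Day 0, without its highest library, was among these 64. The members whose groups could not overlap numbered 1 in each comparison, and 0 at BDL day 3 against Day 0, 1 at BDL day 14 against Day 0 and 0 at BDL day 14 against BDL day 3 with the 5% margin, and 1, 2 and 3 with the geometric mean. Over all genes kept the numbers were 260, 213 and 75, then 88, 72 and 28 with the margin, and 577, 559 and 288 with the geometric mean. Equal summed signal moved the median log2 ratio of all genes to 0.11, 0.29 and 0.19 in the 3 comparisons and the genes higher at BDL day 14 against Day 0 from 2729 to 4579. With a mean of at least 10, 1096 genes in place of 3760 were lower at BDL day 3 against Day 0 and 1265 in place of 3707 at BDL day 14, and with no filter 6139 and 5706. The shares of the leading fatty acid binding protein and of *Plin2* per kilobase stayed within 1.5 times under both other lengths. Leaving out each replicate in turn needs values per library and was not run. No paired analysis was possible because the group means carry no replicate numbers and no test was made. Depth per library is unknown, so for *Fabp2*, *Fabp3* and *Plin4*, with means of 5 or less, counting error could not be given.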
